A study of Mus musculus with 18 samples.

Results

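Apbb2, Limch1, Bend4 and Atp8a1 lie within 1.51 Mb of each other on chromosome 5, about 15 to 16 Mb from Ppargc1a, the gene deleted in the intestine of the study's knockout mice. Every probe that the array names for 1 of these 4 genes was taken, which gave 12 of 56605 probes and 4 of 37074 gene names. The 4 genes were chosen by their genotype difference on these arrays (iPGC1a-/- against iPGC1afl/fl mice on HFD) and by their position near each other, so the genotype values are given as a description with no test. Gene expression was measured in isolated ileum cells of 18 mice, with 1 Agilent one-colour array per mouse and 6 mice per group. The groups were iPGC1afl/fl on chow, iPGC1afl/fl on a high-fat diet (HFD, which the paper calls WD) and iPGC1a-/- on HFD. All mice were of C57BL6/J background and carried the floxed Ppargc1a allele. The iPGC1a-/- mice also carried Cre under the Vil1 promoter, which is active in the intestinal epithelium and removes exons 3 to 5 there, and other ileal cells keep the gene. Mice began the diets at 8 weeks of age and stayed on them for 8 weeks. The HFD held 42% of its calories as fat and 0.2% cholesterol, and mice were sacrificed at ZT 3. The array data of iPGC1a-/- mice on chow were not used here, and no genotype difference on chow can therefore be given.

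Ppargc1a encodes the coactivator Pgc1α, which drives genes of mitochondrial biogenesis and oxidative metabolism. The 4 neighbours belong to different pathways. Apbb2 encodes an adaptor that binds the cytoplasmic tail of the amyloid precursor protein. Limch1 encodes a protein with LIM and calponin homology domains that acts on non-muscle myosin II. Bend4 encodes a protein with a BEN domain, a fold that binds DNA or other proteins in chromatin factors. Atp8a1 encodes a P4-type ATPase, a flippase that moves aminophospholipids to the cytoplasmic leaflet of membranes. Bulk RNA from the ileum does not tell apart a change in the number of cells that express a gene from a change in RNA per cell.

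A probe is a designed sequence of 60 bases, and each gene was seen through 1 to 4 of them at different places in its transcripts. Stretches of 30 bases of 7 probes are shown because the genotype difference depended on the probe. The first of each pair is the probe that passed the genotype threshold and the second is one of the same gene that did not; Bend4 has 1 probe. Capitals mark AATAAA, the hexamer of the polyadenylation signal, searched on the probe strand only. It was present in 2 of the 12 probes and in 9.77% of all probes.
Apbb2 A_52_P555603: tttacgcgtagaagaacgtctcttagccag
Apbb2 A_51_P149562: cactgaattgctgtaacaatggggtgacac
Limch1 A_55_P2023732: taaaaattgtgccttagaaaacgcaaagct
Limch1 A_55_P2735140: aacatatactttgctgaggagcctgtgctc
Bend4 A_55_P2199118: gtaaaattgcacAATAAAtgtcaagttacc
Atp8a1 A_52_P534844: tgcttaagcctgaaaattatttcacagttc
Atp8a1 A_55_P2075294: tttctccaaggaAATAAAgAATAAAcgaag

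On the mm9 build of the files, the Apbb2 probe A_52_P555603 lies at chr5:66790941-66791000 on the minus strand and was designed on the Ensembl transcript ENSMUST00000160185. Its pair A_51_P149562 lies at chr5:66693289-66693348 and was designed on the RefSeq transcript NM_009686. The Limch1 probe A_55_P2023732 lies at chr5:67447159-67447218 on the plus strand, from base 4902 of NM_001001980, and A_55_P2735140 at chr5:67366036-67366095 was designed on the cDNA AK140954. The Bend4 probe A_55_P2199118 lies at chr5:67783389-67783448 on the minus strand, from base 7872 of NM_001164806. The Atp8a1 probe A_52_P534844 lies at chr5:68012680-68012739 on the minus strand, from base 4814 of NM_001038999, and A_55_P2075294 at chr5:68172118-68172177, from base 41 of XM_006503705. Exons, introns and UTRs were not assigned, because no mm9 annotation was used here.

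Of the 12 probes, 11 passed the filter on dim signal, in which a probe was kept if 5 or all 6 arrays of some group had it well above background. The exception was the Limch1 probe A_52_P456392, well above background on 1 of the 18 arrays. In each of the 4 genes, exactly 1 probe was past the genotype threshold, an adjusted p of 0.05 and a fold of 1.5 between iPGC1a-/- and iPGC1afl/fl mice on HFD, and all 4 were higher in iPGC1a-/- mice. Over the whole array, 35 of 21542 tested genes (0.162%) were past this threshold, and 0.0882% were past it and higher in iPGC1a-/- mice. Since this contrast chose the genes, nothing is read from that comparison. Levels below are log2 normalized signals. A level is not compared between probes, and where a probe is set against others of its gene on the same array, the change of that gap between groups is what is described.

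Apbb2 had the widest genotype difference of the 4 genes. At A_52_P555603 the lowest, median and highest levels were 5.65, 5.84 and 6.08 on chow, and 5.65, 5.86 and 5.92 in iPGC1afl/fl mice on HFD. In iPGC1a-/- mice on HFD they were 6.89, 7.42 and 7.94. All 6 iPGC1a-/- arrays stood above all 12 iPGC1afl/fl arrays, and the 2 floxed groups overlapped. The means were 5.81 ± 0.12 and 7.44 ± 0.36 on HFD (SD, n = 6), a log2 difference of 1.63 (standard error 0.13), or 3.10-fold. Over the array, 0.849% of probes had no overlap between the genotypes on HFD. The other 3 Apbb2 probes, all well above background on every array, differed by 0.18 (A_51_P149562), 0.06 (A_65_P15418) and -0.01 (A_55_P2720268). Within an array, A_52_P555603 stood at -2.69 ± 0.15 relative to the mean of those 3 probes in iPGC1afl/fl mice on HFD and at -1.13 ± 0.36 in iPGC1a-/- mice (log2, n = 6), so the probes of Apbb2 changed unequally. Both RefSeq probes, A_51_P149562 and A_65_P15418, were among those that stayed close to 0.

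Bend4 was dim in floxed mice. Its raw median signal was 28 to 42 on chow and 28 to 38 in iPGC1afl/fl mice on HFD, and the local background of whole arrays had medians of 17 to 23. The probe was well above background on 3 of 6, 5 of 6 and 6 of 6 arrays of iPGC1afl/fl chow, iPGC1afl/fl HFD and iPGC1a-/- HFD mice. The lowest, median and highest log2 levels were 4.70, 5.09 and 5.33 on chow, and 4.79, 5.13 and 5.32 in iPGC1afl/fl mice on HFD. In iPGC1a-/- mice they were 5.24, 6.29 and 6.55. The groups overlapped through 1 mouse: iPGC1a-/- replicate 2 had 5.24, inside the range of both floxed groups, and the other 5 iPGC1a-/- mice had 5.95 to 6.55. The log2 difference was 1.001 (standard error 0.17), or 2.001-fold,, and 1.18 (standard error 0.13) without that mouse. It was 0.59 with normexp correction and 1.9997 with the background-subtracted signal, and 0.95 and no longer past the threshold with scaling to the 75th percentile.

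Limch1 was at the edge of detection. The probe A_55_P2023732 was well above background on 0 of 6 chow arrays, 1 of 6 arrays of iPGC1afl/fl mice on HFD and 5 of 6 of iPGC1a-/- mice. It passed the filter only through the iPGC1a-/- group, where it was high. The levels were 4.34 to 4.60 on chow (median 4.42), 4.36 to 5.20 in iPGC1afl/fl mice on HFD (median 4.60) and 5.03 to 5.63 in iPGC1a-/- mice (median 5.34). The groups on HFD overlapped, since iPGC1afl/fl replicate 1 had 5.20 and iPGC1a-/- replicate 2 had 5.03. The measured means on HFD were 4.66 ± 0.31 in iPGC1afl/fl and 5.37 ± 0.22 in iPGC1a-/- mice (SD, n = 6). With 5 of the 6 iPGC1afl/fl arrays at background, their log2 difference of 0.71 is not an exact size, and it ranged from 0.35 with normexp correction to 2.55 with the background-subtracted signal. It was no longer past the threshold with normexp correction, with scaling to the 75th percentile, in the fit of 2 groups and without iPGC1a-/- replicate 5. Against chow, iPGC1a-/- mice on HFD were 1.56-fold higher with chow levels set no lower than a floor. The floor was the dimmest signal well above background on each chow array. This bound is approximate, since brighter signals could also fail to be well above background, such as Bend4 at 5.06 on chow replicate 3. The iPGC1a-/- mean also includes replicate 2, which was not well above background. The other tested Limch1 probe, A_55_P2735140, differed by 0.03.

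Atp8a1 had all 4 of its probes well above background on every array. At A_52_P534844 the levels were 8.15 to 9.13 on chow (median 8.44), 7.86 to 8.18 in iPGC1afl/fl mice on HFD (median 8.00) and 8.47 to 9.005 in iPGC1a-/- mice (median 8.71). On HFD the genotypes did not overlap, and the iPGC1a-/- levels lay within the range of the chow mice. The log2 difference was 0.71 (standard error 0.12). The other 3 probes differed by 0.08 (A_66_P128448), -0.01 (A_55_P2075294) and -0.06 (A_66_P131919). Within an array, A_52_P534844 stood 1.57 ± 0.13 above the mean of the other 3 probes in iPGC1afl/fl mice on HFD and 2.28 ± 0.14 above it in iPGC1a-/- mice (log2, n = 6).

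**Figure D1:**
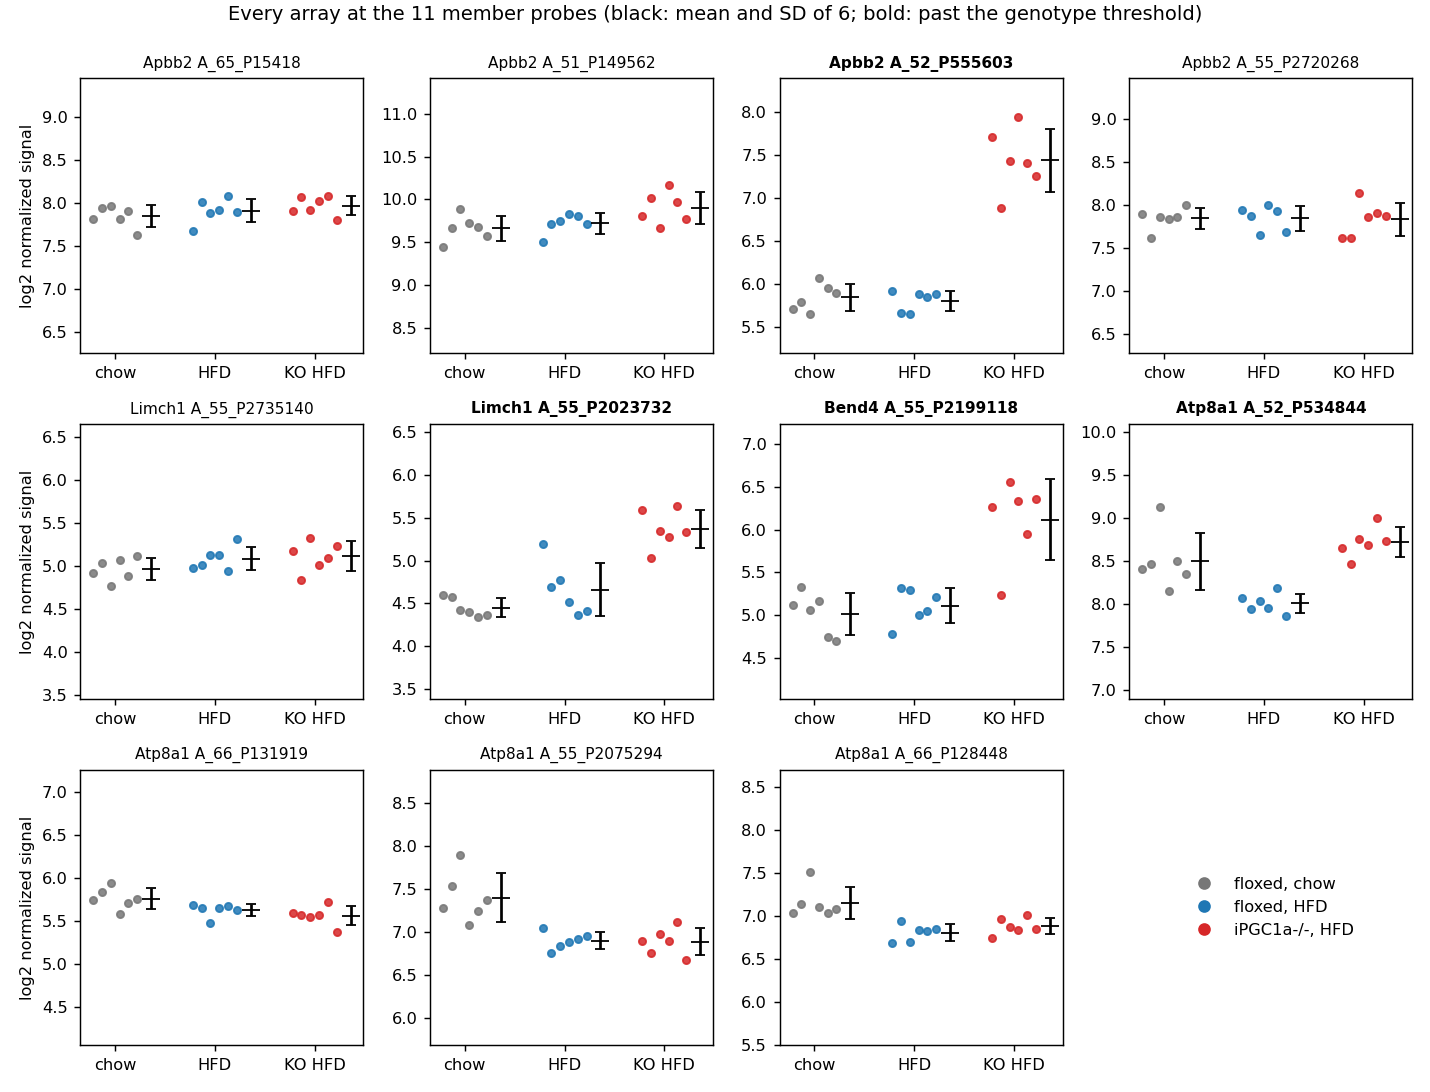
Log2 normalized signal of every array (points) at the 11 tested probes of the 4 genes, with the mean and SD of the 6 arrays of a group in black and the same height in log2 units for all panels. In each gene 1 probe (bold title) is higher in iPGC1a-/- mice on HFD, and the other probes of Apbb2, Limch1 and Atp8a1 differ by -0.06 to 0.18.

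The 7 member probes that were not past the threshold differed by -0.06 to 0.18 on the log2 scale, and the 4 that were differed by 0.71 to 1.63. The mean over all tested probes of a gene gave a log2 difference of 0.46 for Apbb2, 0.37 for Limch1 and 0.18 for Atp8a1. Disagreement between probes was seen elsewhere on the array too. Apart from these genes, 13 genes past the genotype threshold had 2 or more tested probes, and in 9 of them 1 probe alone was past it. By slide, each of which held 2 arrays of every group, the differences at the 4 probes on these same arrays ranged from 1.39 to 1.82 for Apbb2, 0.66 to 0.80 for Atp8a1, 0.41 to 1.30 for Bend4 and 0.32 to 1.01 for Limch1, over 3 slides. They are a description of the arrays that chose the genes.

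The same mouse was lowest of the 6 iPGC1a-/- mice at all 4 probes. iPGC1a-/- replicate 2 stood above the floxed HFD mean by 1.08 for Apbb2, 0.46 for Atp8a1, 0.37 for Limch1 and 0.13 for Bend4. At the 7 other probes of these genes it was lowest at 2, and at the 18 probes of other genes that were past the genotype threshold and higher in iPGC1a-/- mice it was lowest at 0. This mouse was singled out after its values were seen. Without it the 4 differences were 1.74, 0.76, 0.78 and 1.18 for Apbb2, Atp8a1, Limch1 and Bend4. Once the group means were subtracted, the levels of the 4 probes correlated weakly over the 18 arrays, with Pearson's r from -0.13 (Apbb2 and Atp8a1) to 0.37 (Apbb2 and Bend4). Within the 6 iPGC1a-/- arrays all 6 pairs had a positive r, from 0.29 (Apbb2 and Atp8a1) to 0.76 (Limch1 and Atp8a1). Each of these r includes replicate 2, the lowest mouse at all 4 probes, which draws every pair toward a positive r. The r without it was not computed, so joint variation among the other iPGC1a-/- mice is not read from these signs. Within the floxed groups r ran from -0.80 to 0.78. The 0.78 was Limch1 and Bend4 on chow, where those probes were well above background on 0 and 3 of 6 arrays, so it rests largely on background signal. These are descriptions, since all 4 values of a mouse come from 1 array.

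**Figure D2:**
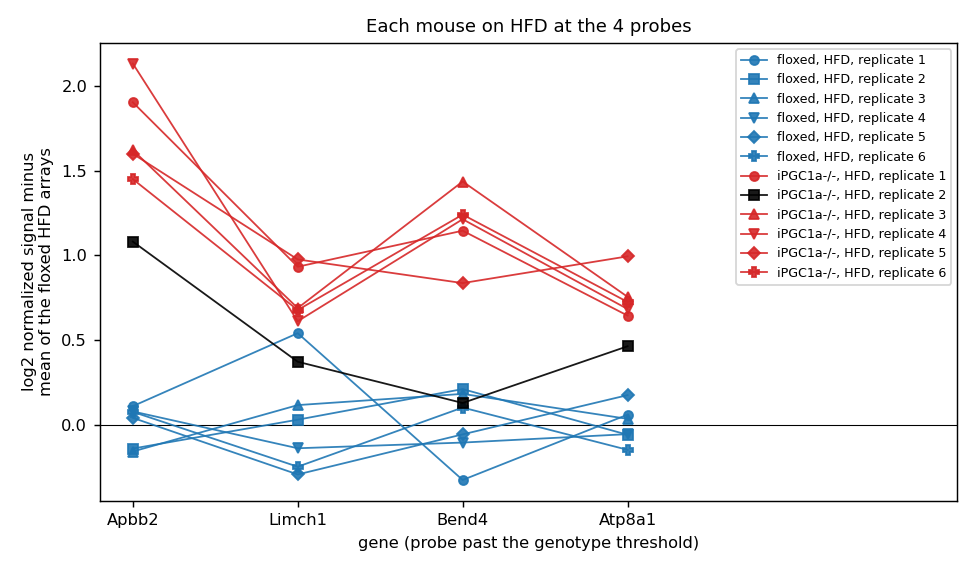
Log2 normalized signal at the probe of each gene that passed the genotype threshold, minus the mean of the 6 iPGC1afl/fl arrays on HFD, with 1 line per mouse on HFD. iPGC1a-/- replicate 2 (black) is the lowest iPGC1a-/- mouse at every gene and lies among the floxed mice at Bend4.

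Ppargc1a was measured by 2 probes, starting at bases 2473 and 2964 of NM_008904. Whether they lie in the deleted exons was not determined, so they do not check the deletion. The paper checked it by RT-qPCR along the intestine, and reported lower ileal RNA of Pgc1α target genes and lower respiration of enterocytes. At the brighter probe, A_51_P279038, the median level was 11.18 on chow, 11.40 in iPGC1afl/fl mice on HFD and 11.63 in iPGC1a-/- mice on HFD. The libraries labelled iPGC1a-/- thus gave no lower signal, with a log2 difference of 0.30 (standard error 0.16) at this probe and 0.37 (standard error 0.16) at the other. After subtraction of group means, its level correlated with the Atp8a1 probe at r = 0.54 over the 18 arrays and with the probes of Apbb2, Bend4 and Limch1 at -0.13, -0.05 and 0.18.

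No other tested gene between the 4 was past the genotype threshold. Between the outermost probes of the 4 genes, the array named 16 other genes, of which 4 had a tested probe. All 7 of their tested probes were below the threshold, with log2 differences from -0.24 to 0.34, and 1 of them, of Slc30a9, had an unadjusted limma p under 0.05. Uchl1, a deubiquitinating enzyme of neurons and endocrine cells, differed by -0.24 (standard error 0.29), and the transcript C530043K16Rik by 0.00 (standard error 0.10). Tmem33, a protein of the endoplasmic reticulum membrane, differed by 0.22 and 0.03 at its 2 probes. The 3 probes of Slc30a9, a zinc transporter, differed by -0.09, 0.34 and 0.03, and the second of these, A_52_P376106 at 0.34, came nearest to the threshold in the interval. The nearest tested gene outside the interval, the transcript BC051646 beyond Atp8a1, differed by 0.08. Before Apbb2, the nearest tested probe, of LOC102635521, differed by -0.02, and the next ones, of Rbm47, by 0.11 and -0.02. Farther out, the probes of the transcript 9130230L23Rik differed by 0.38 (standard error 0.17) and 0.42 (standard error 0.14), also below the threshold.

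The other 12 genes of the interval were too dim to test. They included Gm32964, Uchl1os, AA792017, Gm40313, AK042572, Gm26756, C330024D21Rik, Shisa3, Gm15478 and 2 unnamed long non-coding transcripts. In none of them was any probe well above background on more than 2 arrays of a group, so a genotype difference was not detectable there.

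**Figure D3:**
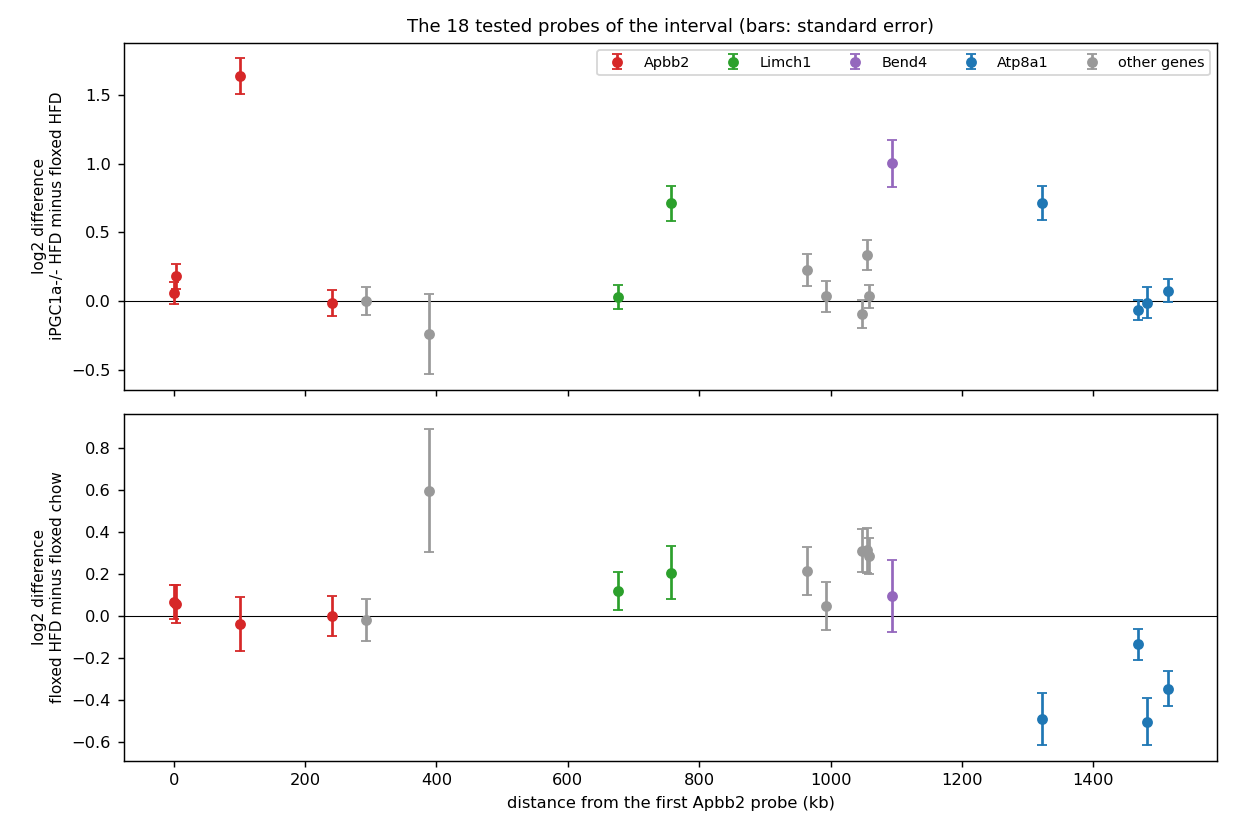
Log2 difference between genotypes on HFD (top) and between diets in iPGC1afl/fl mice (bottom) for the 18 tested probes of the interval, with the standard error, against distance from the first Apbb2 probe in kb. The 4 probes of Apbb2, Limch1, Bend4 and Atp8a1 past the genotype threshold alternate with probes near 0, and 3 of the 4 Atp8a1 probes are the ones that fell on HFD.

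Within 20 Mb of Ppargc1a on either side, 221 other genes were tested and 0 were past the genotype threshold by limma with Benjamini-Hochberg adjustment; without the fold threshold the count was also 0. With the replicate number as a block, 1 of them was past it. An unadjusted limma p under 0.05 was reached by 39 of the 221 genes (17.6%), beside 13.0% of all other tested genes. Over all of chromosome 5 the threshold was passed by 0 of 1322 other genes, of which 161 had an unadjusted limma p under 0.05, and 1 gene, Ociad1, had an adjusted p below 0.05 without reaching the fold. Within 10 Mb of Ppargc1a, 0 of 63 tested genes were called and 6 had an unadjusted limma p under 0.05. Among other probes of the 20 Mb window, the lowest difference was -0.65 (Cox7b2) and the highest was 0.52 (the transcript TC1720293).

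**Figure D4:**
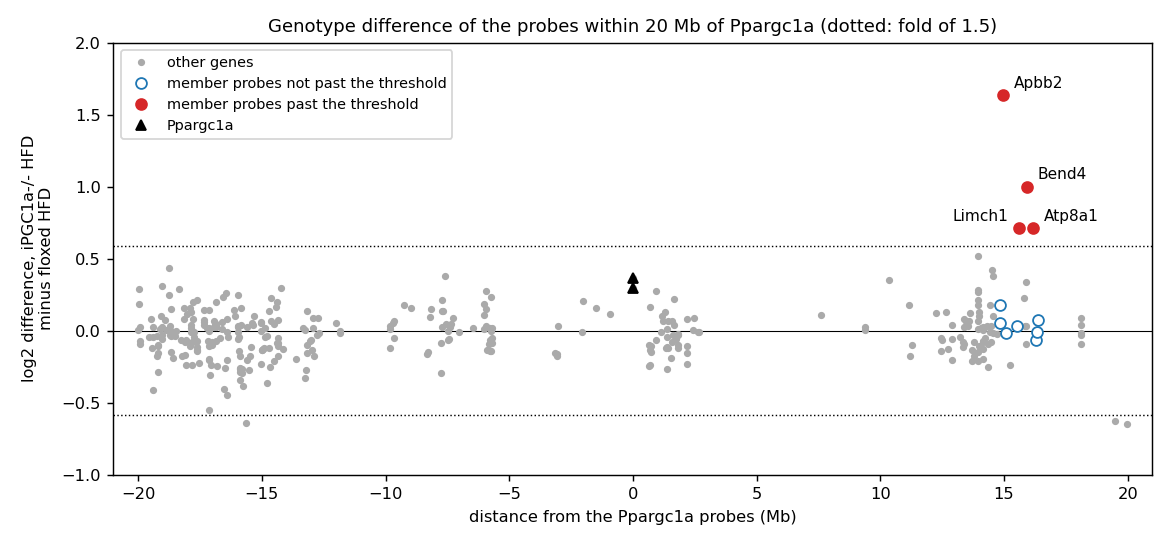
Log2 difference between iPGC1a-/- and iPGC1afl/fl mice on HFD for each tested probe within 20 Mb of Ppargc1a, against distance from the Ppargc1a probes in Mb (dotted lines, a fold of 1.5). The 4 filled probes of Apbb2, Limch1, Bend4 and Atp8a1 stand between 14.9 and 16.2 Mb and above 0.7, and the 7 open probes of the same genes lie near 0.

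The diet contrast, iPGC1afl/fl mice on HFD against chow, did not choose the genes, although the HFD arrays also entered the contrast that did. Low floxed HFD levels widen a genotype difference of this direction and also favour a fall on HFD. The diet p-values at A_52_P534844, the genotype-linked Atp8a1 probe, are therefore not independent of the choice. The other Atp8a1 probes were not past the genotype threshold. Atp8a1 fell on HFD. The log2 difference was -0.49 (standard error 0.12, limma adjusted p = 0.00688) at A_52_P534844, -0.50 (standard error 0.11, adjusted p = 0.00244) at A_55_P2075294 and -0.35 (standard error 0.08, adjusted p = 0.00483) at A_66_P128448. At A_55_P2075294 the levels were 7.08 to 7.89 on chow and 6.75 to 7.04 on HFD, with no overlap and an exact two-sided permutation p of 0.00216, the smallest that 6 against 6 arrays allow. At A_66_P128448 they were 7.03 to 7.51 and 6.68 to 6.94, also with no overlap. At A_52_P534844 the diets overlapped through 1 mouse on each side, and the exact permutation p was 0.00433. The remaining probe, A_66_P131919, gave -0.14 (limma adjusted p = 0.190). The falls were 1.27-fold to 1.42-fold, so no probe reached the fold of 1.5.

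Apbb2, Bend4 and Limch1 were not past the test for diet. Of their 7 probes, the Limch1 probe A_55_P2023732 was at background on nearly all arrays of both floxed groups and gives no diet difference. The other 6 had log2 differences from -0.04 to 0.12 and limma adjusted p from 0.366 to 0.998. In all, 3 of the 11 tested probes of the 4 genes had an adjusted p of 0.05 or less for diet, against 22.9% of all tested probes (13.1% with a fall), and 2 of 11 did not overlap between diets, against 9.47%. All of these probes fell and were of Atp8a1, and 11 probes are too few to tell their shares from the background. The 3 include A_52_P534844, whose HFD values also entered the choice of the genes. In the interval, the 3 probes of Slc30a9 rose on HFD by 0.29 to 0.31 (limma adjusted p from 0.0212 to 0.0406).

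Markers of other cells also moved with the diet. All 5 tested T cell markers (the array lists no probe named Trac, the other one of the list) fell on HFD past the adjusted p and fold thresholds, with a mean log2 level of 8.59 to 9.99 over the chow arrays and 7.43 to 8.44 over the HFD arrays of iPGC1afl/fl mice. So did 3 of 5 B cell, 2 of 4 plasma cell and 5 of 6 goblet cell markers and 1 marker each of the Paneth, enteroendocrine, tuft, crypt stem, macrophage and enterocyte lists, and 2 enterocyte markers rose. Over the array, 9.11% of tested genes changed either way. The mean log2 level on chow and on HFD was 6.65 to 8.37 and 5.48 to 7.24 for B cells, 9.73 to 10.40 and 8.33 to 9.34 for plasma cells, and 15.45 to 15.91 and 14.42 to 15.50 for goblet cells. The part of these cells in the fall of Atp8a1 was not tested. For genotype, 0 of 66 tested markers in 15 cell type lists were past the threshold by limma, and 10 had an unadjusted p under 0.05. The 8 enterocyte markers had a mean log2 level of 15.19 to 15.75 over all arrays.

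Against chow, iPGC1a-/- mice on HFD showed how the probes of 1 gene parted, a contrast in which diet and genotype cannot be told apart. At the genotype-linked Atp8a1 probe the log2 difference was 0.22 (standard error 0.12), and at A_55_P2075294, A_66_P128448 and A_66_P131919 it was -0.51, -0.27 and -0.20. Apbb2 at A_52_P555603 differed by 1.595 and Bend4 by 1.09, and the Limch1 probe A_55_P2023732 has only the approximate bound of 1.56-fold given above. The median over the 11 probes was 0.15, also with that probe at its bound.

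Genes related to the 4 by function were described from lists of flippases, amyloid precursor protein partners, myosin II genes and BEN domain genes. Of 47 tested relatives, 0 were past the genotype threshold by limma and 5 had an unadjusted p under 0.05, and the list medians of the log2 difference lay between -0.07 and 0.04, beside 0.01 over all tested genes. Among the relatives of Atp8a1, its closest paralog Atp8a2 differed by genotype by 0.01 at its brightest probe, and Tmem30a, the subunit that flippases need to leave the endoplasmic reticulum, by -0.16.

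For diet, an adjusted p of 0.05 or less was reached by 7 of 15 flippase genes, 7 of 14 amyloid precursor protein partners, 3 of 13 myosin II genes and 1 of 5 BEN domain genes, against 27.3% of all tested genes. Of the flippases, Atp10b fell by 0.62, Atp8b2 by 0.39 and Atp10d by 0.40. Atp11a fell by 0.54 and 0.44 at its dimmer probes, and its brightest probe gave -0.09 (limma adjusted p = 0.473). Atp11b rose by 0.38, Tmem30b by 0.32 and Atp9a by 0.25. Of the Apbb2 relatives, the paralog Apbb3 rose by 0.47 at its brightest probe (limma adjusted p = 0.00800), with Apba3 and the receptor Lrp1 at 0.50 and 0.54. Apbb1ip, an adaptor of integrin signalling in blood cells, fell by 1.04, and Bace2, Aplp2 and the protease Adam10 fell by 0.86, 0.42 and 0.27. The myosin heavy chain Myh10 rose by 0.69. Myh14 rose by 0.92 at its dimmer probe, and its brightest probe gave 0.11 (limma adjusted p = 0.388). Myh9 fell by 0.27 at 1 of its 4 probes. Bend3 fell by 0.25.

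Over the 18 arrays, the genes most like the brightest probe of each of the 4 were ranked by Pearson's r over 1 probe per gene. For Atp8a1 they were Rnf2 (0.79), Rapsn (0.78) and N4bp2l1 (0.77), and for Bend4 they were Cdkal1 (0.82), Spsb2 (0.82) and an unnamed transcript of chromosome 12 (0.81). For Apbb2, whose brightest probe is A_51_P149562, they were Gm13415, Pbld1 and AK045486 (0.75 to 0.76). For Limch1, at A_55_P2735140, they were Tbata (0.82) and unnamed transcripts of chromosomes 2 and 17 (both 0.79).

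The share of spots well above background was 56.3% to 62.3% by array, and 0 spots were saturated. No array file gives a count, so the number of arrays limits the precision, with a median standard error of 0.10 on the log2 scale. The labels do not say that the mice were of separate litters or cages.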

How the data were processed

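The authors scanned 3 slides of Agilent SurePrint G3 Mouse GE v2 arrays and deposited the spot intensity values of Agilent Feature Extraction 10.10.1.1, which are not normalized between arrays. They also deposited log2 values that, per their methods, were filtered, corrected for washing bath and labelling serial and normalized by qsmooth. The sources used here do not name the batch of an array, and that step was not repeated. Here, control and outlier spots were left out, spots of a probe were averaged, dim probes were filtered and the log2 median signal was normalized by an own version of qsmooth (window 0.05). limma 3.58.1 in R 4.3.3 fitted the 3 groups in 1 model, and p-values were adjusted over 32726 probes by the Benjamini-Hochberg procedure. The fit was tested on simulated data. Dim groups of a probe have only an approximate bound. Probe positions are those of mm9, and symbols were kept as the files give them. A named gene is a probe of the 4 genes or Ppargc1a, a gene of the interval, a gene past the genotype threshold within 20 Mb, the 3 most alike genes, or a list member that moved. Genes outside this rule (BC051646, LOC102635521, Rbm47, 9130230L23Rik, Ociad1, Cox7b2, TC1720293, Nnt, Cyp2a12 and AK206655) and Tmem30a were named after their values were seen. The genes and lists were chosen with earlier results of these data known. Some items are not reported here. Limits and alternatives stand in the closing section.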

Additional observations from a re-analysis of the deposited data

Results flagged for a closer look

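In 33 groups of 6 arrays at the 11 tested probes, 3 had an array that stood apart from the other 5, where chance gives about 1 in 20. All 3 were Atp8a1 probes and replicate 3 of a floxed group. At A_52_P534844, chow replicate 3 was highest with a gap of 0.644 of the group's range, and at A_66_P128448 the same array was highest with 0.786. At A_66_P131919, replicate 3 of the iPGC1afl/fl mice on HFD was lowest with 0.708. The falls of Atp8a1 on HFD remained past an adjusted p of 0.05 at the 3 probes when any 1 of the 18 arrays was left out.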

How the results depend on the processing

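The probes of Apbb2 and Atp8a1 past the genotype threshold stayed past it under all 12 alternatives that keep probes apart and when any 1 array was left out, with log2 differences of 1.18 to 2.14 and 0.62 to 0.76. These are refits of the values that chose the genes and give no independent support. Bend4 was past it in 10 of 11 alternatives and Limch1 in 8 of 11. Limch1 (at 0.66) was lost without iPGC1a-/- replicate 5, and in the fit of only the 2 groups compared. When each array was scaled to its 75th percentile in place of qsmooth, 2 member probes and 2 neighbourhood genes were called by genotype (Apbb2 and Atp8a1); Limch1 gave 0.65 and Bend4 0.95. With normexp correction Limch1 gave 0.35 and Bend4 0.59, and with the processed signal they gave 2.55 and 1.9997. Asking for a signal well above background on all 18 arrays removed both dim probes, leaving 2 member probes and 2 neighbourhood genes, and a median of 0.053 against chow. With the mean of all probes of a gene, 1 gene was past the threshold by genotype (Bend4). For diet, Atp8a1 alone had a limma adjusted p under 0.05 (0.00365), and its log2 difference of -0.37 was short of the fold threshold. Counts of members by diet use the adjusted p alone, and the other counts by diet also use the fold unless stated. With the processed signal, 28 neighbourhood genes and 3006 of all genes were called by diet (15 and 1962 otherwise), and the median against chow was 0.26. Without the fold threshold, 56 genes were called by genotype, 5891 by diet and 53 of the neighbourhood by diet. A 10 Mb window held 0 genes called by genotype and 4 by diet, since the 4 genes lie beyond it, and a 30 Mb window held 27 by diet.

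Leaving out 1 array at a time gave 3 to 4 member probes by genotype, and 3 by diet with the adjusted p alone. With the fold also required, it gave 3 to 4 neighbourhood genes by genotype and 14 to 20 by diet. Over all genes it gave 25 to 48 by genotype and 1754 to 2172 by diet, also with the fold. The median against chow was 0.13 to 0.20. The labels do not say whether the replicate numbers pair the mice, and the correlations between arrays do not settle it. After subtraction of group means, 9 of 18 same-numbered pairs of arrays correlated above 0.1, with a range from -0.217 to 0.346. Their median was 0.101, against -0.0306 for other pairs of arrays. For 8 of the 18 arrays, the best match in another group had the same number. The replicate block left the 4 member probes past the genotype threshold and called 5 genes of the neighbourhood, so 1 gene besides these 4 was past it there. It called 31 genes by genotype and 1974 by diet. The slide as a block called 35 and 1959 genes.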

Other observations

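In Apbb2 and Limch1, the probes that moved with genotype were alike to other genes than the brightest probes were. In Bend4 and Atp8a1 the brightest probe was itself the one that moved. Over the 18 arrays, the gene nearest to Apbb2 at A_52_P555603 was Nnt, the mitochondrial transhydrogenase gene in which C57BL/6J mice carry a deletion, with a Pearson's r of 0.96. Its probe A_55_P2144285 lies on chromosome 13, and its mean level was 9.97 ± 0.23 in iPGC1afl/fl and 11.45 ± 0.11 in iPGC1a-/- mice on HFD (SD, n = 6). The other tested Nnt probes differed by 0.61 (A_55_P2829145) and 0.06 (A_55_P2008956) on the log2 scale. The next were Cyp2a12 on chromosome 7 (0.89) and Gm15446 on chromosome 5 (0.86). Limch1 at A_55_P2023732 was nearest to Tmem88 (0.87), Cyp2a12 (0.87) and Retn (0.85). These correlations follow the genotype groups and are descriptions.

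At the transcript AK206655 of chromosome 10, which fell by 1.43 on the log2 scale from iPGC1afl/fl to iPGC1a-/- mice on HFD, iPGC1a-/- replicate 2 had 6.26 and the other 5 iPGC1a-/- mice had 5.10 to 5.47. The iPGC1afl/fl mice on HFD had 6.70 to 7.07. At Nnt the same mouse had 11.44, within the 11.32 to 11.61 of the other iPGC1a-/- mice. AK206655 was picked after its values were seen, as 1 of 16 genes past the genotype threshold and lower in iPGC1a-/- mice. How often this mouse stood nearest the floxed mice at the others was not counted.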
